A study of Mus musculus with 16 samples.

Results

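The nuclear-encoded subunits of respiratory complex I were followed in RAW264.7, a macrophage-like line of mouse origin, untreated and during exposure to lipopolysaccharide (LPS, a component of the outer membrane of Gram-negative bacteria). The set was every gene of the deposited count table whose symbol is Nduf followed by a, ab, b, c, s or v and a number, with at least 10 counts in 4 of the 8 input and 4 of the 8 footprint libraries. It held 37 of the 13832 genes in the table, and all 37 genes with such a symbol met the count minimum. Assembly factors, whose symbols begin with Ndufaf, were left out by that rule and are given below for comparison.

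Complex I (NADH:ubiquinone oxidoreductase) is the largest enzyme of the mitochondrial respiratory chain. It passes electrons from NADH to ubiquinone through a flavin and a chain of iron-sulfur clusters in its matrix arm, and pumps protons through its membrane arm. The core of the matrix arm is nuclear-encoded and the core of the membrane arm is encoded by mitochondrial DNA, with accessory subunits around both. In macrophages, LPS is known to shift energy metabolism from respiration towards glycolysis and has been linked to reverse electron transport at complex I.

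Cytoplasmic input RNA and ribosome-protected fragments (footprints) were sequenced at 0 min, without LPS, and at 15, 30, 45, 60, 75, 90 min and 16 h of LPS at 100 ng/ml. The 16 groups held 1 library each, 8 of input and 8 of footprints, and input and footprints of a time point came from 1 lysate. The labels name no genetic change, and the only untreated cells were those of 0 min, so LPS and time in culture or handling cannot be told apart. There were no replicates: tests of change take their error from how far libraries lay from a smooth curve over time, and give the single 16 h library the same error as the rest. The test of the mean level of footprints over input has no curve. In it the 8 time points of 1 series stand in for replicates.

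Every library summed to 6702930 to 6702932 counts, so the totals say nothing of the original depth. Counts of the 37 genes lay between 136 (Ndufa11, input at 16 h) and 3122 (Ndufa4, footprints at 0 min). All 8 macrophage markers looked for had counts, though Itgam had only 17 to 71 in input. They moved apart: in input at 16 h 5 rose (Adgre1, Cd14, Itgam, Ptprc and Spi1) and 2 fell, while 28.3% of all genes rose and 27% fell. Input counts of Cd14, which LPS is known to induce, ran from 3282 untreated to 15967. The 2 that fell, on the log2 scale, were Csf1r (−1.10, adjusted p = 2.18e-07) and Lyz2 (−0.44, adjusted p = 0.00104). Of 6 markers of other cell types, Pecam1 was the one in the table, with 0 to 8 counts. Levels below are CPM, counts brought to a common library size and scaled by TMM (trimmed mean of M values) over all 16 libraries. They are relative amounts, so fewer cells with an RNA and less of it per cell cannot be told apart.

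The start regions of these genes come first, since elements near the start are known for many nuclear genes of the respiratory chain. RefSeq windows of GRCm38.p6, the build that matches the mm10 of the files, ran from 250 bases before to 50 bases after each annotated start, and 33 of the 37 genes had one (35 windows). The TISU element (translation initiator of short 5′ UTR, here AAGATGGC followed by GGC, searched on both strands) was in 4 of the 33 genes, or 12.1%, against 0.633% of all 32851 windows. The ATG in it was the annotated coding start in all 4. These 4 genes include Ndufs7 and Ndufs6, among the largest falls at 16 h, and Ndufs4, which did not pass the test at 16 h, so their sequences are shown. They are Ndufa9 at chr6:126849095-126849124 on the minus strand, Ndufs4 at chr13:114388045-114388074 on the minus strand, Ndufs6 at chr13:73328433-73328462 on the minus strand and Ndufs7 at chr10:80249464-80249493 on the plus strand. Capitals mark the element.
Ndufa9: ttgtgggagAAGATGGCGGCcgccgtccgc
Ndufs4: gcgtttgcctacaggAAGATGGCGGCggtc
Ndufs6: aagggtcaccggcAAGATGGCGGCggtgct
Ndufs7: gccgaggccAAGATGGCGGCgctggcgggt

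The element began 25 to 36 bases after the RefSeq start in the 4 genes. In the GENCODE transcripts used for coding length, the 5′ UTR was 13 nt in Ndufa9, 24 in Ndufs7, 96 in Ndufs6 and 202 in Ndufs4. The core of the element, AAGATGGC, also the core bound by YY1, was in 7 genes (21.2%, against 2.75% of all windows), which include these 4. The core of the NRF1 site (nuclear respiratory factor 1, a regulator of nuclear genes for mitochondrial proteins), GCGCA, any base and GCGC on either strand, was also in 7 genes (21.2%, against 4.60% of all windows). For each of the 7, 30 bases around the site nearest to a start are shown in the orientation of the gene, with the core in capitals. These sites begin at positions −98 to 24 relative to the RefSeq start. GENCODE places 5 of the 7 within an exon of the same gene (Ndufa5, Ndufa6, Ndufa8, Ndufb4 and Ndufs6) and 2 in none (Ndufa11 and Ndufs5). They are Ndufa11 at chr17:56717692-56717721 on the plus strand, Ndufa5 at chr6:24527697-24527726 on the minus strand, Ndufa6 at chr15:82354249-82354278 on the minus strand, Ndufa8 at chr2:36049349-36049378 on the minus strand, Ndufb4 at chr16:37654371-37654400 on the minus strand, Ndufs5 at chr4:123718265-123718294 on the minus strand and Ndufs6 at chr13:73328479-73328508 on the minus strand.
Ndufa11: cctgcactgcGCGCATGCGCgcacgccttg
Ndufa5: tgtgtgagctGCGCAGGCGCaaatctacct
Ndufa6: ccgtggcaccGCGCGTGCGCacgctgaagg
Ndufa8: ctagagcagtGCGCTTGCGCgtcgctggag
Ndufb4: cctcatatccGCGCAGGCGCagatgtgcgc
Ndufs5: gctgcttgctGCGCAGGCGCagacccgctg
Ndufs6: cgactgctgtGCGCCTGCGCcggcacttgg

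The ETS core CCGGAAG, which GABPA binds, was in 4 of 33 genes (12.1%, against 8.86% of all windows). The site TCAAGGTCA of the estrogen-related receptors was in 0 of 33, against 0.423% of all windows. A match is a match of letters, not a bound site. Ndufs6 held both the TISU element and an NRF1 core. The median log2 change at 16 h from 0 min was −0.53 in input and −0.42 in footprints with the NRF1 core (n = 7), and −0.55 and −0.48 without it (n = 26). With the TISU element (n = 4) it was −0.59 and −0.58, and without it (n = 29) −0.54 and −0.46. With the ETS core (n = 4) it was −0.49 and −0.55, and without it (n = 29) −0.55 and −0.46. No difference between genes with and without a motif was tested.

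The largest movement of the set was a joint fall at 16 h. In input RNA, 29 of 37 genes fell and 0 rose (edgeR's quasi-likelihood test, Benjamini-Hochberg adjusted over 9529 genes, threshold 0.05). The background was high at this time: 55.3% of all genes were called in input, 28.3% up and 27% down. The median log2 change of the 37 was −0.53, against 0.01 for all genes. In footprints, 26 genes fell and 1 rose, against 50.6% of all genes called (26% up, 24.6% down), with a median of −0.47 against 0.00 for all genes.

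**Figure D1:**
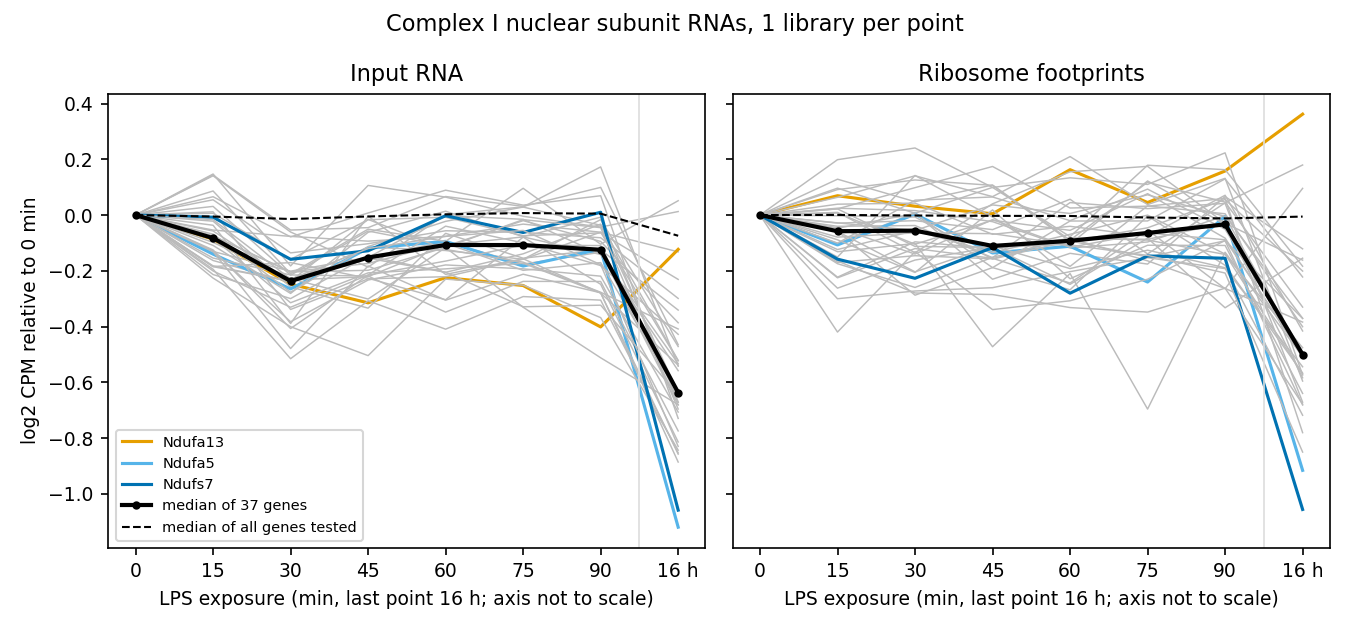
Log2 CPM relative to the 0 min library of the same material, against LPS exposure (min, with 16 h as the last point), for input RNA (left) and footprints (right). Grey lines are the 37 genes, coloured lines 3 named genes, the thick line the median of the 37 and the dashed line the median of all genes tested; at 16 h the median of the 37 was −0.64 in input and −0.50 in footprints.

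The library values show the same without a fitted curve. At 16 h, 33 of 37 genes were lower in input than in any of the 7 earlier input libraries (39% of all genes were), and 30 of 37 were lower in footprints than in any earlier footprint library (33.7% of all genes). In input 0 of 37 were above all earlier libraries (30.2% of all genes), and in footprints Ndufa13, Ndufa7 and Ndufs4 were (34.4% of all genes). The 37 genes took 0.4503% of all input counts at 0 min (binomial 95% interval 0.4452% to 0.4554%), 0.3753% at 90 min and 0.2868% at 16 h (0.2828% to 0.2909%). In footprints the shares were 0.6382% (0.6322% to 0.6443%), 0.5147% and 0.4343% (0.4294% to 0.4393%). These exact (Clopper-Pearson) intervals cover counting error only. Shares of the total fell over 0 to 90 min too, while the TMM-scaled medians at 90 min were −0.12 in input and −0.03 in footprints. Scaling by total counts moved the median of all genes from −0.04 to −0.17 in input and from −0.07 to −0.32 in footprints over 0 to 90 min, from 0.01 to −0.16 in input and from 0.00 to −0.10 in footprints at 16 h.

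Among the 7 core subunits of the matrix arm, 6 fell in input and 6 in footprints at 16 h. Ndufs7 (PSST) carries the last iron-sulfur cluster, N2, which hands electrons to ubiquinone. Its gene (ENSMUSG00000020153.14, chr10:80249121-80256794, plus strand) gave 105, 104, 93.7, 95.7, 104, 100.2 and 105 CPM at 0, 15, 30, 45, 60, 75 and 90 min and 50.0 at 16 h in input. In footprints it gave 142, 127, 122, 131, 117, 129 and 128 over 0 to 90 min and 68.2 at 16 h. The 16 h value was below every earlier library in both materials. At 16 h the ratio to the untreated library was 0.478 in input (95% counting interval 0.420 to 0.542) and 0.479 in footprints (0.427 to 0.537). The fitted log2 change was −0.99 ± 0.106 (SE, adjusted p = 2.59e-06) in input and −1.03 ± 0.118 (SE, adjusted p = 2.18e-06) in footprints, the largest fall of the 37 in footprints. None of its coding 29-mers was shared with a transcript of another gene, and no other annotated exon overlapped it.

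**Figure D2:**
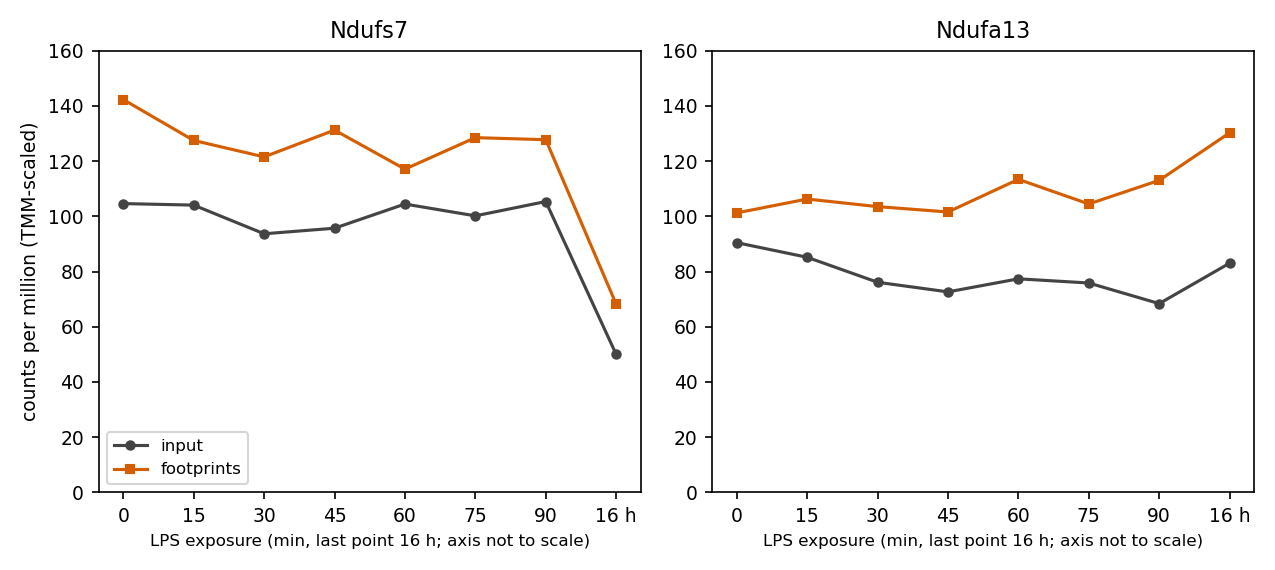
CPM of Ndufs7 (left) and Ndufa13 (right) in each input and footprint library against LPS exposure (min, with 16 h as the last point), 1 library per point. Ndufs7 ended at 50.0 in input and 68.2 in footprints; footprints of Ndufa13 ended at 130.3, above all 7 earlier libraries, with input at 83.0.

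Ndufv1 and Ndufv2 form the NADH-oxidising tip with the largest core subunit, Ndufs1. Ndufv2, which holds an iron-sulfur cluster, gave input values of 167, 165, 142, 154, 158, 161 and 148 over 0 to 90 min and 93.8 at 16 h, and footprint values of 198, 188, 189.7, 189, 184, 179 and 172 over 0 to 90 min and 109.8 at 16 h. Its 16 h values were the lowest in both materials, and the log2 change was −0.74 ± 0.106 (SE, adjusted p = 4.44e-05) in input and −0.82 ± 0.104 (SE, adjusted p = 6.47e-06) in footprints. Ndufs1 changed by −0.66 ± 0.0894 (SE, adjusted p = 2.45e-05) and −0.65 ± 0.121 (SE, adjusted p = 0.000296). Ndufv1, the flavin and NADH binding subunit, changed by −0.61 ± 0.0958 (SE, adjusted p = 9.82e-05) and −0.45 ± 0.113 (SE, adjusted p = 0.0035). Ndufs8 (TYKY), which carries iron-sulfur clusters between that tip and Ndufs7, changed by −0.44 ± 0.111 (SE, adjusted p = 0.00396) and −0.49 ± 0.108 (SE, adjusted p = 0.00139). All 4 fell in both materials. Exons of Ndufs1 overlap Eef1b2 on the opposite strand.

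Ndufs3, a core subunit that links the tip to the quinone-reducing part, passed in footprints (−0.31 ± 0.119 SE, adjusted p = 0.0395) but not in input (−0.14 ± 0.0987 SE, adjusted p = 0.239). The call in footprints was lost in 4 of 13 other settings: Ndufs3 had an adjusted p of 0.267 without 0 min, 0.0648 without 45 min, 0.0988 with DESeq2 and 0.0507 without robust estimation. In input Ndufs3 passed with scaling by total counts (−0.30, adjusted p = 0.0148). The difference between materials is the density test given below, which Ndufs3 did not pass. Over 50% of the coding 29-mers of Ndufs3 occur in transcripts of other genes.

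Of the 9 accessory subunits of the matrix arm, 6 fell in input and 5 in footprints. Ndufa5 (ENSMUSG00000023089.12, chr6:24518666-24528013, minus strand) gave 98.7, 89.6, 82.1, 90.9, 92.5, 86.9 and 90.7 CPM at 0, 15, 30, 45, 60, 75 and 90 min and 45.2 at 16 h in input, and footprint values of 187, 174, 188, 170.4, 173, 159 and 187 over 0 to 90 min and 99.1 at 16 h. The 16 h library was the lowest in both materials. The log2 change was −1.002 ± 0.116 (SE, adjusted p = 5.49e-06) in input, the largest fall of the 37, and −0.92 ± 0.122 (SE, adjusted p = 1.07e-05) in footprints. Ndufs6, a zinc-binding subunit, changed by −0.75 ± 0.133 (SE, adjusted p = 0.000278) and −0.67 ± 0.108 (SE, adjusted p = 8.71e-05). Its exons overlap Mrpl36 on the opposite strand, and Mrpl36 fell as well, by 0.76 in input (adjusted p = 0.00409) and, with an adjusted p of 0.0032, by 0.69 in footprints. Whether counting used strand is not stated in the labels or file headers, and without strand reads of the 2 genes cannot be told apart where they overlap.

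Ndufs4 and Ndufa7, also of the matrix arm, did not pass the test in either material. Ndufs4, whose loss causes Leigh-like disease, gave input values of 90.6, 96.2, 78.2, 87.5, 84.8, 96.9 and 84.2 over 0 to 90 min and 93.9 at 16 h and footprint values of 169, 166, 167, 163, 176, 154 and 174 over 0 to 90 min and 192 at 16 h. Its 16 h input lay within the earlier range and its 16 h footprints above it. The log2 change was 0.12 ± 0.128 (SE, adjusted p = 0.469) in input and 0.18 ± 0.111 (SE, adjusted p = 0.184) in footprints. Ndufa7 gave 0.08 ± 0.151 (SE, adjusted p = 0.698) and 0.16 ± 0.137 (SE, adjusted p = 0.342).

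In the membrane arm, 9 of 10 distal subunits fell in input and 9 in footprints, and 6 and 4 of the 9 proximal ones. The distal group, mostly small Ndufb proteins, had medians of −0.64 and −0.56, and the proximal group −0.42 and −0.42. Of the distal genes, Ndufb3 fell most in input (−0.78 ± 0.146 SE, adjusted p = 0.000429) and Ndufb10, a subunit of the intermembrane space side, most in footprints (−0.78 ± 0.112 SE, adjusted p = 2.62e-05). Ndufb5 changed by −0.76 ± 0.105 (SE, adjusted p = 3.12e-05) in input, Ndufb2 by −0.73 ± 0.169 (SE, adjusted p = 0.00227) and Ndufb7 by −0.70 ± 0.121 (SE, adjusted p = 0.000219). Ndufb6 changed by −0.71 ± 0.11 (SE, adjusted p = 5.63e-05) in footprints. Exons of Ndufb2 overlap Braf and those of Ndufb5 overlap Mrpl47, both on the opposite strand. In the proximal group Ndufa10, a nucleoside kinase relative, changed by −0.66 ± 0.111 (SE, adjusted p = 0.000111) in footprints.

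**Figure D3:**
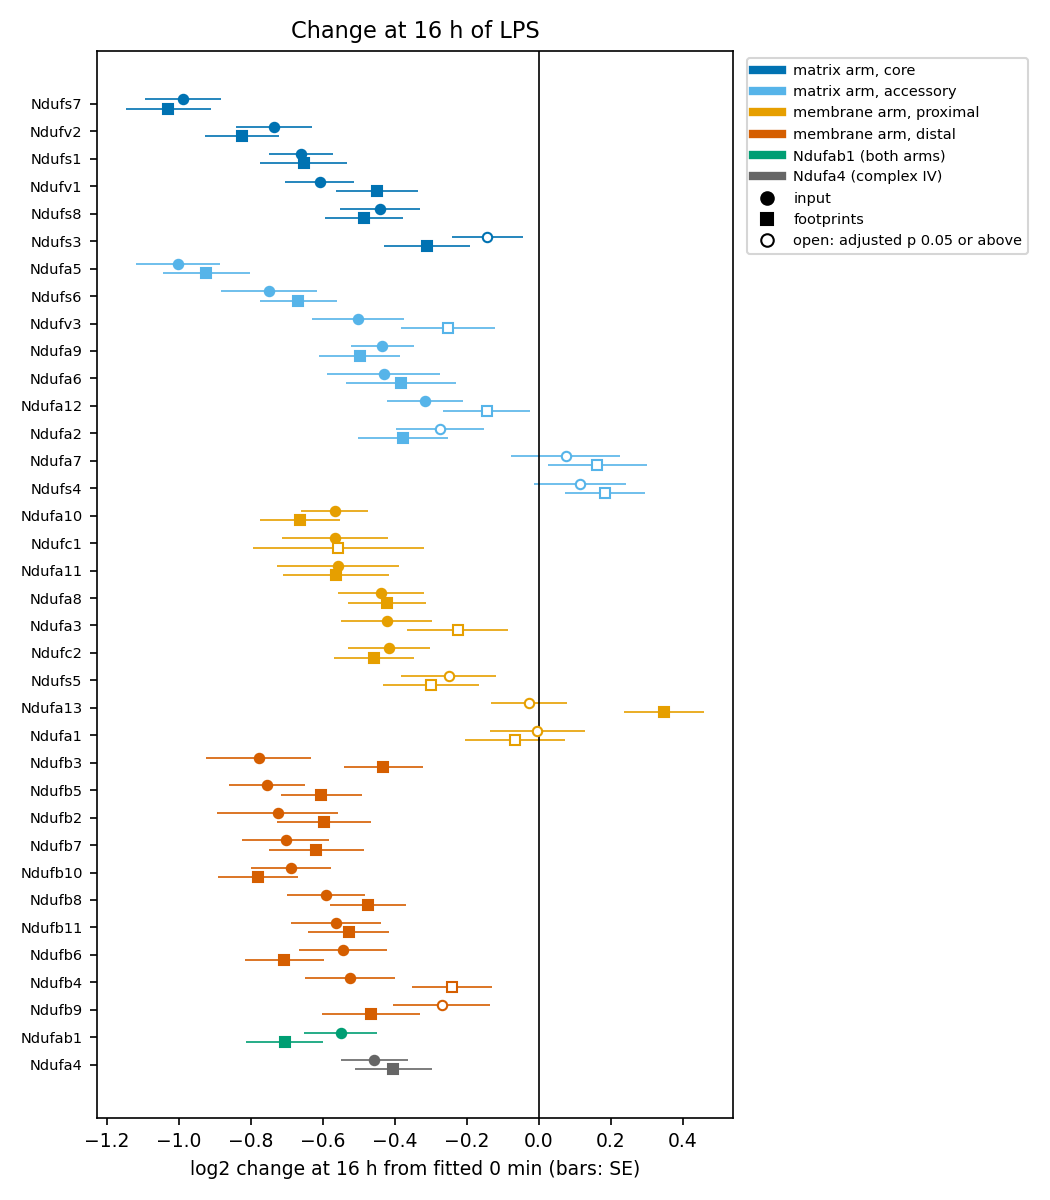
Fitted log2 change at 16 h from 0 min (horizontal axis) for 36 of the 37 genes (vertical axis), grouped by arm. Circles are input, squares footprints, bars the SE, and open symbols had an adjusted p of 0.05 or above; 23 genes have both symbols filled to the left of 0, and Ndufa13 alone has a filled symbol to the right (footprints, 0.35).

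Ndufa13 (GRIM-19), a proximal subunit also known as a binding partner of STAT3, was the 1 gene to rise in footprints. Its gene (ENSMUSG00000036199.9, chr8:69894180-69902558, minus strand) gave 90.5, 85.2, 76.1, 72.6, 77.4, 75.9 and 68.4 CPM at 0, 15, 30, 45, 60, 75 and 90 min and 83.0 at 16 h in input. In footprints it gave 101, 106, 104, 102, 113, 104 and 113 over 0 to 90 min and 130.3 at 16 h. Footprints at 16 h exceeded all 7 earlier libraries, while input at 16 h lay within the earlier range. Footprints rose by 0.35 ± 0.112 (SE, adjusted p = 0.0162) on the log2 scale, and the input change was −0.03 ± 0.106 (SE, adjusted p = 0.846). The rise in footprints did not pass with scaling by total counts (0.25, adjusted p = 0.0701) or with DESeq2 (0.34, adjusted p = 0.0803). The exons of Ndufa13 overlap those of Tssk6 on the opposite strand, and 15.8% of its coding 29-mers were shared with transcripts of other genes.

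Ndufab1, the mitochondrial acyl carrier protein, sits in both arms and also serves lipoic acid and iron-sulfur cluster synthesis. It changed by −0.55 ± 0.102 (SE, adjusted p = 0.000388) in input and −0.71 ± 0.108 (SE, adjusted p = 4.64e-05) in footprints. All of its coding 29-mers (100%) were shared with transcripts of other genes, so its counts depend on how multiple matches were treated. Ndufa4, named as a complex I subunit and now placed with complex IV, gave input values of 214, 201, 182, 183, 198, 202 and 194 over 0 to 90 min and 145 at 16 h and footprint values of 456, 464, 461, 449, 420.3, 427 and 456 over 0 to 90 min and 353 at 16 h. It was lowest at 16 h in both and changed by −0.46 ± 0.0937 (SE, adjusted p = 0.000887) and −0.40 ± 0.107 (SE, adjusted p = 0.00494). Its relative Ndufa4l2 had 0 to 1 counts in every library.

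At 16 h, 23 genes fell in both materials, which is 79.3% of those that fell in input and 88.5% of those that fell in footprints. For all genes these shares were 73.9% and 81.3%, with 1905 of 9529 falling in both. Ndufa1, Ndufa7, Ndufa13, Ndufs4 and Ndufs5 were called a fall in neither, and 6515 of all 9529 genes were in neither. Ndufs5 had estimates of −0.25 in input and −0.30 in footprints that did not pass, and its 16 h input was below all 7 earlier libraries. In all, 14 of the 37 genes had an exon overlapping one of another gene on the opposite strand. Ndufb2, Ndufb8 and Ndufb9 had such an overlap on the same strand (Gm42420, Gm20538 and Gm49356). Of the 20 genes with under 5% of coding 29-mers shared, 18 fell in input and 16 in footprints. In every setting run, 23 genes fell in input at 16 h, 22 in footprints and 20 in both. The 20 include Ndufs1, Ndufs7, Ndufs8, Ndufv1, Ndufv2, Ndufa5, Ndufab1 and Ndufa4.

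Other parts of the chain were set beside these. Of 38 nuclear subunits of complexes II to V, 33 fell and 1 rose in input at 16 h, and 29 fell and 1 rose in footprints, with medians of −0.57 and −0.55. Sdhd, a membrane anchor of complex II, changed by −1.11 ± 0.0883 in input (SE, adjusted p = 1.23e-07), and Uqcrq of complex III was the gene that rose, by 0.45 ± 0.133 (SE, adjusted p = 0.0102). Of 15 complex I assembly factors, 6 fell in input and 5 in footprints, and 0 rose, with medians of −0.15 and −0.17. Of the 7 subunits encoded by mitochondrial DNA, mt-Nd1, mt-Nd3 and mt-Nd6 fell in input. Their input counts went from 16723 to 6204, from 6783 to 1490 and from 1761 to 801 between 0 min and 16 h. The median change of the 7 was −1.04 in input and −0.92 in footprints, with all 7 estimates below 0 in both. In footprints only mt-Nd3 passed the test, and 0 of the 7 passed the density test at 16 h. The differences between these lists were not tested.

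Over 0 to 90 min few of the 37 genes passed. In input 3 fell and 0 rose, against 27.1% of all genes called (15.2% up, 11.9% down), with a median of −0.14 against −0.04. In footprints 1 fell, against 21.8% of all genes called (12.7% up, 9.13% down), with a median of −0.10 against −0.07. With scaling by total counts, which moved the median of all genes as given above, 9 fell in input and 20 in footprints. A change over 0 to 90 min is given as the point of the fitted curve furthest from its 0 min value. The lowest median in input within 90 min came at 30 min, at −0.24 from the 0 min library, against −0.01 for all genes. The 37 genes ran from −0.515 to −0.05 there. At 30 min the footprint median was −0.06, against −0.002 for all genes. The input values rest on 1 library at 30 min and 1 at 0 min, shared by all genes, and were not tested on their own.

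The 3 genes that fell in input were Ndufc1, Ndufs6 and Ndufa13. Ndufc1, a small proximal subunit, gave input values of 49.2, 45.9, 41.9, 39.8, 45.3, 39.0 and 34.3 over 0 to 90 min and 30.5 at 16 h. Its lowest value within 90 min was the last, and its fitted change was −0.43 ± 0.122 (SE, adjusted p = 0.0462). Ndufs6 gave 75.9, 66.3, 53.0, 61.2, 57.0, 61.9 and 61.3 over 0 to 90 min and 41.8 at 16 h in input and 133, 119, 109.6, 109, 106, 104 and 111 over 0 to 90 min and 83.0 at 16 h in footprints. All 6 libraries of 15 to 90 min were below 0 min in both materials, and the change was −0.38 ± 0.108 (SE, adjusted p = 0.0477) in input and −0.34 ± 0.0904 (SE, adjusted p = 0.0295) in footprints. Ndufa13 changed by −0.35 ± 0.0922 (SE, adjusted p = 0.0289) in input. Of the coding 29-mers, 15.8% in Ndufa13, 28.5% in Ndufc1 and 47.5% in Ndufs6 were shared with transcripts of other genes, and 0 of the 20 genes with under 5% shared passed in either material. None of these calls held in every setting: without 0 min or without 15 min 0 of the 37 genes passed in input and 0 in footprints, and DESeq2 called 0 in either. Without 75 min or without 90 min 1 passed in input, and without 30 min or without 90 min 2 passed in footprints; without 45, 60 or 75 min 0 did.

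Footprints relative to input (ribosome density) were tested over all 16 libraries, with each time point as a block. Over 0 to 90 min 0 of 37 genes passed (1.28% of all genes did, 1.14% up and 0.136% down). An unadjusted p under 0.05 was found for 2 of the 37, and for 875 of all 9529 genes. At 16 h 0 passed (0.504% of all genes, 0.378% up and 0.126% down). Again 2 of the 37 had an unadjusted p under 0.05, and 992 of all 9529 genes had. DESeq2 also called 0 of the 37 at both times. The median density change was 0.07 over 0 to 90 min and 0.11 at 16 h, against −0.05 and 0.07 for all genes. At 16 h the 37 estimates ran from −0.12 to 0.45 with SEs of 0.141 to 0.227.

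The density estimate furthest from 0 was that of Ndufa13 at both times. Its footprint to input ratio was 1.12 at 0 min (95% counting interval 1.00 to 1.25), 1.25 at 15 min, 1.36 at 30 min, 1.40 at 45 min, 1.47 at 60 min, 1.38 at 75 min, 1.65 at 90 min and 1.57 at 16 h (1.41 to 1.75). The untreated library was the lowest of the 8. The fitted log2 change was 0.45 ± 0.136 (SE, adjusted p = 0.334) over 0 to 90 min and 0.45 ± 0.157 (SE, adjusted p = 0.276) at 16 h, and without 0 min the 16 h value was 0.17. Next were Ndufb10 over 0 to 90 min (0.37 ± 0.129 SE, adjusted p = 0.482) and Ndufb3 at 16 h (0.42 ± 0.182 SE, adjusted p = 0.415). For Ndufs7 the ratio ran from 1.12 to 1.37 with a median of 1.29, and for Ndufa5 from 1.82 to 2.29 with a median of 1.92.

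The mean density level over the 8 time points was above that of the typical gene for most of the set. The 8 time points stood in for replicates here, so the SEs and adjusted p of the level do not cover variation between repeated experiments. It was higher for 33 of 37 genes and lower for 0, against 85% of all genes called (43.6% up, 41.5% down). The median was 0.73 on the log2 scale, against 0.02 for all genes. Of the 38 nuclear subunits of complexes II to V, 38 were higher, with a median of 0.97. Of the 15 assembly factors 8 were higher and 6 lower (median 0.20). Of the 7 subunits encoded by mitochondrial DNA 7 were lower (median −2.56). The input was cytoplasmic RNA, so the ratio of these 7 may not measure the same as that of nuclear genes. Differences between these lists were not tested. At single time points the median of the 37 lay between 0.60 at 60 min and 0.83 at 30 min. With scaling by total counts the median was 0.51, with all genes at −0.19, and the calls were 29 higher and 4 lower. The share of all genes called with that scaling is not given here.

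**Figure D4:**
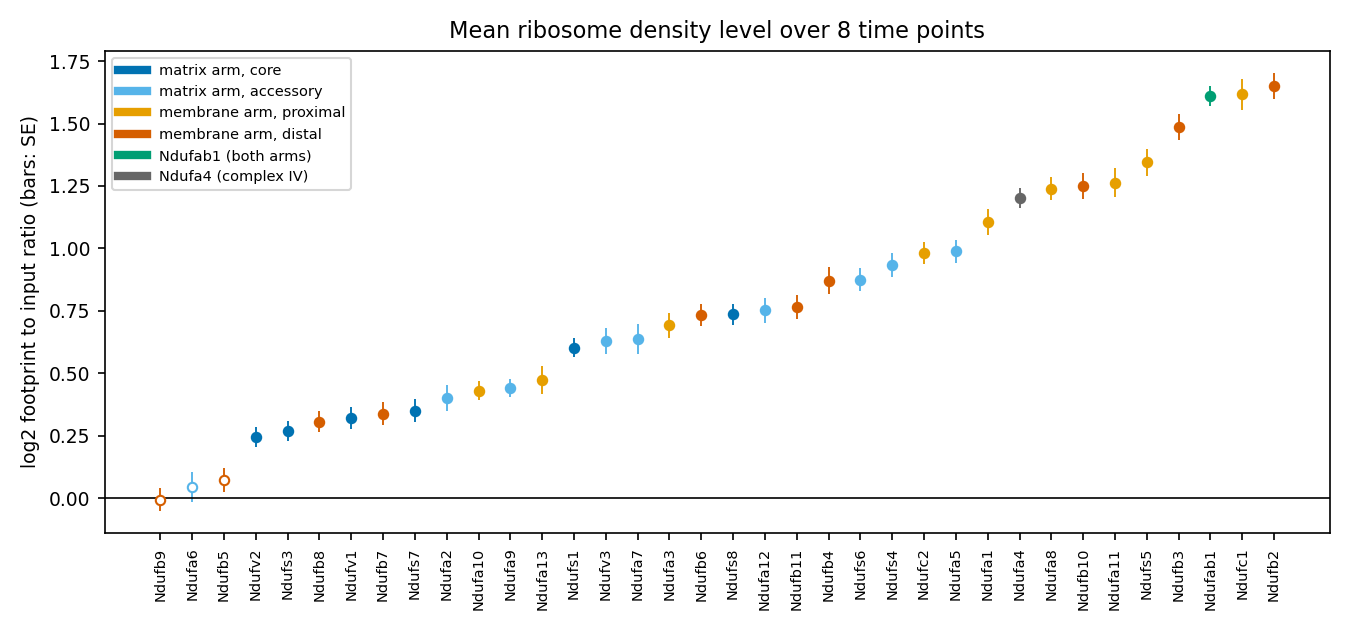
Mean log2 footprint to input ratio over the 8 time points (vertical axis, bars are the SE) for 36 of the 37 genes in rising order, coloured by arm. Open symbols had an adjusted p of 0.05 or above; the order drawn runs from −0.01 (Ndufb9) to 1.65 (Ndufb2).

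At the low end of the order, Ndufb9 (−0.01 ± 0.0459 SE, adjusted p = 0.907), Ndufa6 (0.04 ± 0.06 SE, adjusted p = 0.491) and Ndufb5 (0.07 ± 0.0481 SE, adjusted p = 0.157) did not pass. The ratio of Ndufb9 lay between 0.922 and 1.08 in the 8 pairs of libraries. With scaling by total counts Ndufb9 (−0.22, adjusted p = 0.000329), Ndufa6 (−0.17, adjusted p = 0.0108) and Ndufb5 (−0.15, adjusted p = 0.00704) were among the 4 lower calls. At the other end stood Ndufab1 (1.61 ± 0.0394 SE, adjusted p = 1.74e-19), Ndufc1 (1.62 ± 0.063 SE, adjusted p = 6.71e-16) and Ndufb2 (1.65 ± 0.0537 SE, adjusted p = 1.57e-17). Ndufb2 had ratios of 2.63 to 3.46 and Ndufab1 of 2.88 to 3.38. Of the coding 29-mers, 49.1% in Ndufb2, 100% in Ndufab1 and 34.2% in Ndufb9 were shared with transcripts of other genes. Among the 20 genes with under 5% shared 17 were higher, with a median of 0.52. Neighbours in this order mostly did not differ beyond their error: 1 of 36 gaps, that between Ndufb5 and Ndufv2, exceeded 2 SE. Levels by arm were lowest in the core matrix subunits (median 0.32) and highest in the proximal membrane subunits (median 1.11). Coding lengths ran from 636 to 2181 nt in the core group and from 210 to 1065 nt in the proximal group. Arms were not compared at like length.

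Density level was lower in genes with longer coding sequences. Across the 37 genes the level had a Spearman correlation of −0.575 with coding length, which ran from 210 to 2181 nt, and across 9136 genes with an annotated length it was −0.503. All points share the same 16 libraries. Among genes with up to 450 nt, the 19 of the set had a median of 0.88 and all 638 genes of that class 0.88, with 9 of the 19 above the class median. Above 450 and up to 900 nt the medians were 0.54 (12 genes) and 0.44 (1819 genes), with 6 of 12 above. Above 900 nt they were 0.44 (6 genes) and −0.18 (6679 genes), with 6 of 6 above. This last class has no upper limit, while the 6 genes end at 2181 nt, so its 2 medians do not compare genes of like length. In the shorter classes the medians of the set lay at or near those of all genes of like length.

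**Figure D5:**
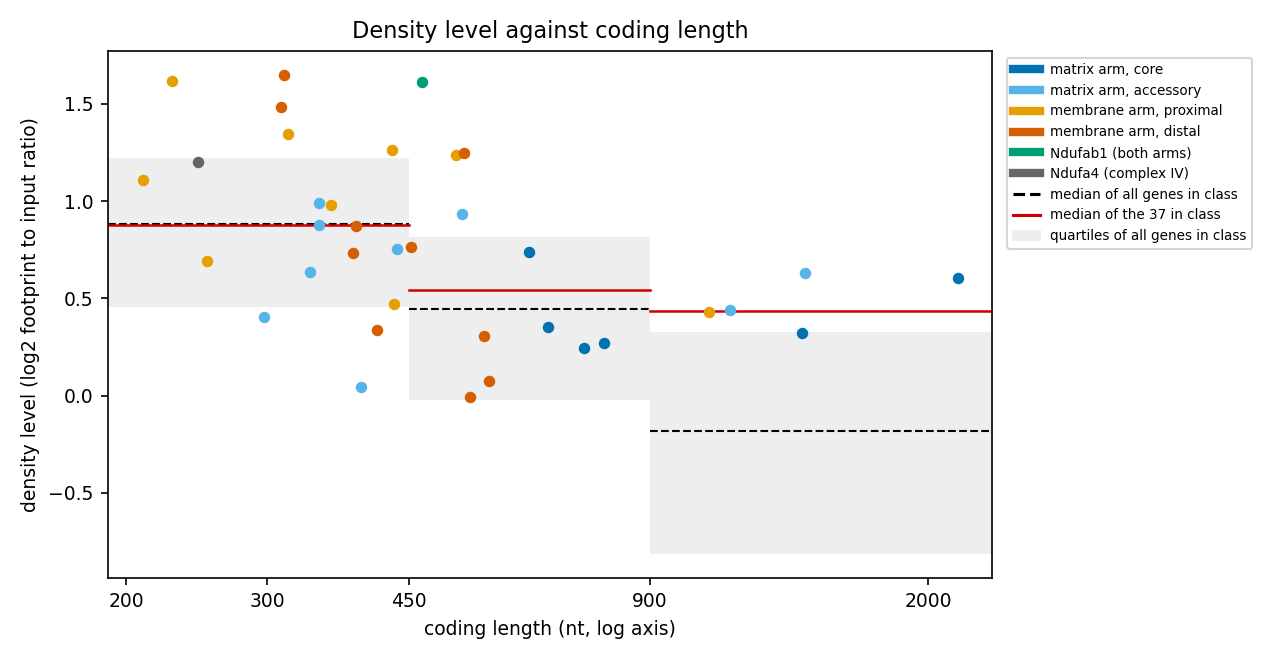
Mean density level (log2 footprint to input ratio, vertical axis) against coding length (nt, log axis) for 36 of the 37 genes, coloured by arm. Red lines are medians of the set in 3 length classes, dashed lines and grey boxes the median and quartiles of all genes of the class. Red and dashed lines coincide at 0.88 up to 450 nt and part above 900 nt (0.44 against −0.18). The class above 900 nt has no upper limit and takes in genes longer than those of the set.

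The 37 proteins of these genes come together in fixed proportions, apart from Ndufa4 and from Ndufab1, which sits at 2 places. Untreated levels per coding kilobase were less even than that. Without Ndufa4, footprints per kilobase spanned a 10.3-fold range with an SD of 0.767 on the log2 scale, and input per kilobase a 7.09-fold range with an SD of 0.618. The lowest footprint level per kilobase was that of Ndufv3, 65.0 CPM per kilobase over a coding length of 1404 nt, the long isoform. Without Ndufv3 as well, the ranges were 5.63-fold in footprints and 5.48-fold in input, and Ndufv1 was the lowest in footprints at 119.1. Ndufab1 had 642.8 and Ndufs7 211.8. Ndufa4 was the highest of the 37 at 1854.3 and also the highest in input per kilobase, at 868.0. Reads outside the coding sequence, if counted, are part of these values.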

How the data were processed

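Per the labels' protocols, about 10% of each lysate became input, and fragments of 25 to 35 nt were taken from both materials. The submitters' processing notes name Bowtie 0.12.8, DESeq2 1.18.1 and mm10. Features counted, strand, multiple matches and duplicates: not given in the sources used here. From the authors came 16 columns of whole-number counts per gene and, per the file headers, 16 of DESeq2-normalised signal (those counts over a size factor), which no test used. Genes with at least 10 counts in 4 of 8 libraries of each material (9529) were scaled by TMM and fitted with edgeR 4.0.16 in R 4.3.3 (robust quasi-likelihood F-test, Benjamini-Hochberg adjustment over all tested genes, threshold 0.05). Every adjusted p comes from it unless DESeq2 (1.42.0) is named. Each material was scaled and fitted alone, on minutes, minutes squared and a 16 h term, with 4 residual degrees of freedom. Density was fitted over both materials, with a time-point block and material by time terms (4 residual degrees of freedom), and its level with time point and material (7). Lengths, overlaps and shared 29-mers (APPRIS principal coding sequence against all other genes' transcripts) came from GENCODE M21 on GRCm38, and promoters from RefSeq on GRCm38.p6. Named genes were up to 8 per direction and comparison with the largest called change, the 7 core subunits, Ndufa4, Ndufab1 and the ends of the density order; others named, such as Ndufs4 and Ndufa7, were chosen after their values were seen. 1 gene of the set enters counts and medians and is not reported here by itself. The 37 genes and all lists were chosen with earlier results of these data known. Alternatives were total-count scaling, DESeq2, no filter, linear or square-root time, no time-point block, no robust estimation (added after seeing the data) and each time point left out.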

Additional observations from a re-analysis of the deposited data

How the results depend on the processing

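The counts of the 37 genes that changed at 16 h and in density level stayed within 1.5 times under every alternative run: leaving out 1 time point gave 26 to 30 in input, 25 to 28 in footprints and 33 to 34 for the level. Density changes stayed at 0 genes throughout. Over 0 to 90 min the count in input was 3, and it was 9 with total-count scaling, 0 with DESeq2, 1 with the square root of time, 1 without robust estimation (chosen after seeing the data) and 0 to 4 with a time point left out. In footprints it was 1, and it was 20 with total-count scaling, 0 with DESeq2, a linear term or the square root of time, and 0 to 2 with a time point left out. For total-count scaling the shares of all genes called are not given beside these counts. In density level Ndufa6 (−0.17) and Ndufb5 (−0.15) turned to the lower side with total-count scaling, and Ndufb9 (−0.22) became a lower call. In another alternative Ndufb5 became a higher call, at 0.16. The cause of these shifts was not tested. Of 673 comparisons of a named gene with an alternative, 38 lost the call, 4 gained it and 2 reversed. Among all genes, density changes over 0 to 90 min went from 122 to 328 without 30 min and to 5 without 0 min. No paired analysis was possible by replicate number because each group holds 1 library; the density tests pair input and footprints of 1 lysate through the time-point block. Equal totals hide the original depth.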
